A study of Rattus norvegicus with 16 samples.

Results

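The 7 genes described here are 3 myogenic regulatory factors (Myog, Myod1 and Myf6), 3 inhibitors of DNA binding (Id1, Id2 and Id3) and Dlk1, a Delta-like surface protein. They were chosen by name, and every probe set whose single gene symbol is one of these was taken, which gave 9 of the 8799 probe sets and 7 of the 4737 genes with a symbol of their own. Id1 and Id3 have 2 probe sets each. The data are rat skeletal muscle RNA on single-colour short oligonucleotide arrays. EOM (extraocular muscle, which turns the eye in its socket) has 4 arrays of 4 numbered samples. TA_6h (skeletal muscle with the label TA, collected at 6 hours) has 8 arrays taken as 4 numbered samples, and TA_1h (likewise, at 1 hour) has 4 arrays of 2 numbered samples. The labels name no strain, age, treatment or animal for any group, do not tell the starting point of the hours, and give no collection time for EOM. Arrays of the same number entered as their log2 mean and counted once, so p-values measure the spread between numbered samples, which may be technical.

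Myogenic regulatory factors are basic helix-loop-helix (bHLH) proteins that pair with E proteins and bind a short DNA motif, the E box, in muscle genes. Myod1 commits cells to the muscle lineage, Myog drives the differentiation of myoblasts into fibres, and Myf6 is the member most strongly kept in adult fibres. Id proteins have the helix-loop-helix but no basic region, so they take up E proteins without binding DNA, and they are typical targets of bone morphogenetic protein (BMP) signalling. Dlk1 resembles the Notch ligand Delta but lacks the motif that activates the receptor, and it is known for holding back fat cell formation and for its role in muscle growth.

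The stretches upstream of 3 members are shown because they carry the motif that myogenic factors bind, and because these 3 members behaved differently on the arrays: Myog was lower in EOM, Id2 was higher, and Myf6 passed no test. Each is the 250 bases before the gene's start in RefSeq's GRCr8 build, from chr13:48297226-48297475 on the plus strand for Myog, chr7:44701314-44701563 on the minus strand for Myf6 and chr6:47470996-47471245 on the minus strand for Id2. Capitals mark E boxes (CANNTG, which reads the same on both strands) and 1 match to the consensus of MEF2, a partner of the myogenic factors. That consensus was YTAWWWWTAR (Y is C or T, W is A or T, R is A or G), and only full matches are marked. In the Myog stretch, ctatatttat differs from it in the last base alone and is not marked.
Myog: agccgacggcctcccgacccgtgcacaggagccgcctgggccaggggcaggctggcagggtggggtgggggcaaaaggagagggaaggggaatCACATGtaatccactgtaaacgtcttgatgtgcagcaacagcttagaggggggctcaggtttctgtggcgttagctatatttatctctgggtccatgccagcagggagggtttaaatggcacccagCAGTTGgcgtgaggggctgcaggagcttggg
Myf6: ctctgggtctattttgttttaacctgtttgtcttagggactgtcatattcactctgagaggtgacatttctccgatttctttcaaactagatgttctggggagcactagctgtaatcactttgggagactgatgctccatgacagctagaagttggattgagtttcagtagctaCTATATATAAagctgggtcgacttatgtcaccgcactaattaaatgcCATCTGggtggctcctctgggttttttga
Id2: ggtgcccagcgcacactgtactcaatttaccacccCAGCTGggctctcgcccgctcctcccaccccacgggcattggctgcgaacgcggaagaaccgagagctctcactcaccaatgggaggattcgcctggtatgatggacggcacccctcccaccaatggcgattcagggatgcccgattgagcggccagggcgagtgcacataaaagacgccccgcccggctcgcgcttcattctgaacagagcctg
The Myog stretch has 2 E boxes, CACATG with its first base at -157 from the start and CAGTTG at -31. Myf6 has 1, CATCTG at -29, and the MEF2 match at -76, which does not overlap it. Id2 has CAGCTG at -215. The promoter table held 6 of the 7 members, all but Myod1. For Id1, Id3 and Dlk1 its start lies inside the gene's entry, so their stretches are not described. Among the 250 bases before the table's start for all 33469 entries 65.5% have at least 1 E box, 30.8% have at least 2 and 2.96% have a MEF2 match. The GC content was 60.4% for Myog, 42.4% for Myf6 and 62.8% for Id2, against a median of 51.2%.

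The deposited values are linear intensities. Negative values make up 24.3% of the EOM columns, while the lowest TA value is 0.0219, so wherever EOM is set against TA, the muscle cannot be told apart from the step that summarised the probes. Values below the 25th percentile of all intensities (56.5, called the floor) were raised to it before log2 was taken. The floor is a chosen percentile and not a limit of detection. Sizes given below with at least, or as lower limits, therefore hold for this floor only. All 9 member probe sets were among the 7640 tested, and 7 of them were above the floor on all 16 arrays. Of the 12 TA arrays 5, namely both arrays of TA_6h samples 3 and 4 and array 2b of TA_1h, had a low ratio between the middle and 3′ probes for beta-actin, a sign of RNA quality (0.146 to 0.390). That ratio ran from 0.815 to 1.28 for the remaining 7 and from 0.891 to 0.978 in EOM. Those 7 were not alike in the middle Gapdh probes, which gave 856 to 2184 on 4 of them (TA_6h 1b and 2b, TA_1h 1a and 2a) and 9699.6 to 19527 on 3. As a check on the labelled tissue, desmin (Des) gave 8454 to 9377 on EOM arrays, 8262 to 26837 on TA_6h arrays and 9363 to 19901 on TA_1h arrays. Creatine kinase M (Ckm), a defining muscle marker, gave 7404 to 12333 on EOM arrays but lay at or below the floor on 3 of 8 TA_6h arrays and 1 of 4 TA_1h arrays.

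The first question was which of these regulators differ between extraocular muscle and TA muscle. Between EOM and TA_6h, 6 of the 9 member probe sets passed the test at an adjusted p under 0.05, where 47.2% of all tested probe sets did. Myog, Myod1 and Dlk1 were lower in EOM (25.3% of all probe sets were), while Id2 and both probe sets of Id1 were higher (21.9% of all). The arrays of EOM lay wholly above those of TA_6h for 2 member probe sets (16.5% of all) and wholly below for 3 (17.3% of all). Between EOM and TA_1h, 7 of the 9 passed, against 37.2% of all probe sets. Myog and Myod1 were again lower (19.5% of all), and Id1, Id2 and Id3 were higher in all 5 of their probe sets (17.7% of all). The arrays of EOM and TA_1h did not overlap for any of these 7, with EOM above in 5 (21.0% of all) and below in 2 (21.7% of all). Myog, Myod1, Id2 and both probe sets of Id1 passed, with the same sign, against TA_6h and TA_1h alike, 5 of 9 probe sets where 33.9% of all did. The comparisons share the EOM arrays.

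Myog, the factor of terminal differentiation, had the largest difference of any member between EOM and TA_6h. Its probe set (M24393_at; GRCr8 chromosome 13, 48297476 to 48300065, plus strand) gave -49.97, -551, -59.0 and -511 on EOM arrays 1 to 4. The 8 TA_6h arrays ran from 338 to 1831 with a median of 746. On the TA_1h arrays it gave 436, 639, 418 and 201. All EOM arrays were thus below 0, and every TA array was above the floor. Mean intensities were -293 ± 275 in EOM (SD, n = 4), 869.6 ± 344 in TA_6h (n = 4) and 423 ± 161 in TA_1h (n = 2). EOM has only the floor as a bound. At this floor Myog was at least 13.9-fold lower than in TA_6h (log2 -3.80 ± 0.29, limma adjusted p = 6.39e-06). It was at least 6.93-fold lower than in TA_1h (-2.79 ± 0.35, limma adjusted p = 0.000231). This pattern was not rare: 309 tested probe sets (4.04%) were below 0 on every EOM array and above the floor on every TA array. The size depends on the floor, with log2 -5.81 against TA_6h and -4.81 against TA_1h when the floor was the 10th percentile, and -1.54 against TA_1h when it was the 40th. Against TA_6h the smallest size over all alternative settings, that floor among them, was -2.54. When TA was reduced to the 5 arrays of low beta-actin ratio, the difference from TA_1h was -1.84. Within TA_6h the 4 arrays of low ratio gave 338 to 738 and the other 4 gave 755 to 1831. The part of the ratio in the Myog level was not tested.

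Myod1, the determination factor, was lower in EOM but present there. M84176_at (chromosome 1, 106021161 to 106023871) gave 534, 378, 483 and 311 on EOM arrays, against 714 to 2038 (median 1002) on TA_6h arrays. The TA_1h arrays gave 1131, 994, 704 and 1036. Every EOM array was below every TA array. The means were 426 ± 101 in EOM (SD, n = 4), 1089 ± 331 in TA_6h (n = 4) and 966 ± 136 in TA_1h (n = 2). Myod1 was 2.48-fold lower in EOM than in TA_6h (log2 -1.31 ± 0.25, limma adjusted p = 0.00178) and 2.28-fold lower than in TA_1h (-1.19 ± 0.30, adjusted p = 0.0118). The second call was lost without TA_1h replicate 1 (log2 -1.03, limma adjusted p = 0.097).

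Myf6, the factor of mature fibres, did not pass the test. M27151_at (chromosome 7, 44699469 to 44701313, minus strand) gave 3615, 3386, 3760 and 3405 on EOM arrays. TA_6h arrays ran from 2159 to 10291 with a median of 4013, and TA_1h arrays gave 3746, 3406, 3242 and 2080. The EOM arrays were close together and lay inside the TA_6h range. The 10291 came from TA_6h array 1b, while its partner array of the same number gave 3991. The log2 difference was -0.10 against TA_6h (95% interval -0.75 to 0.56, limma adjusted p = 0.80) and 0.22 against TA_1h (-0.58 to 1.01, adjusted p = 0.67). Without TA_6h array 1b the first difference was 0.07.

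**Figure D1:**
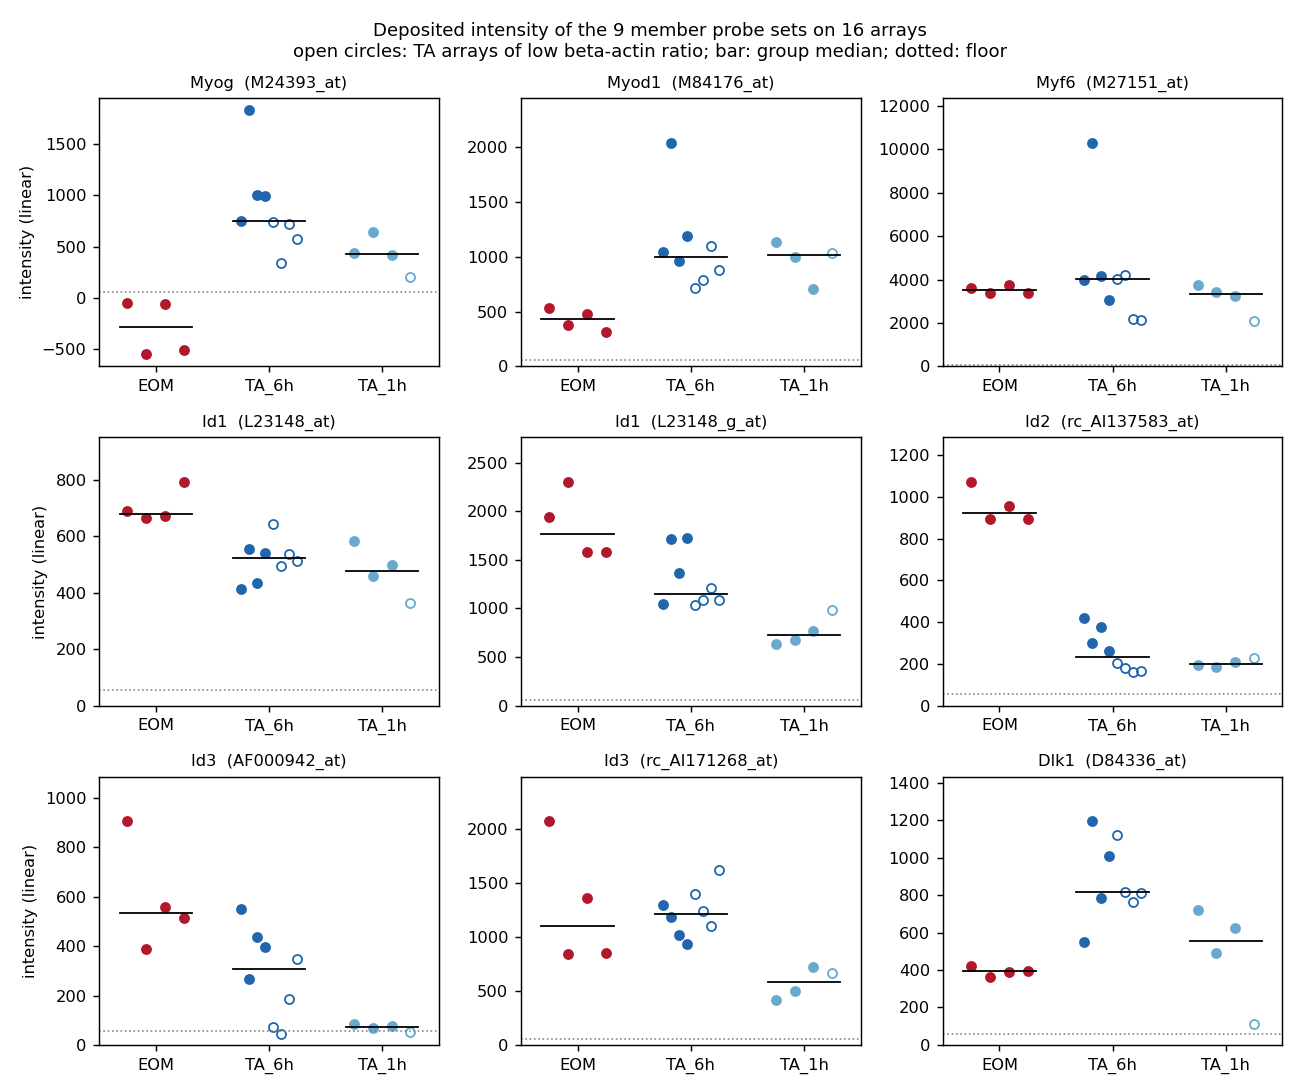
Deposited intensity of the 9 member probe sets on the 4 EOM, 8 TA_6h and 4 TA_1h arrays (linear scale). The y axis starts at 0 except in the Myog panel. Points are arrays, open circles the 5 TA arrays with a low ratio for beta-actin, bars group medians and the dotted line the floor of 56.5. Myog is below 0 on all EOM arrays, and Id2 on EOM arrays (893 to 1071) lies above all TA arrays (160 to 418).

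Id2 was higher in EOM than in both TA groups, and of the 5 Id probe sets it alone passed in both comparisons under all 26 other settings. Its probe set (rc_AI137583_at; chromosome 6, 47469162 to 47470995, minus strand) gave 1071, 893, 955 and 895 on EOM arrays. The TA_6h arrays gave 160 to 418 (median 233), and the TA_1h arrays gave 193, 187, 208 and 227. No TA array reached the lowest EOM array. The means were 953 ± 83.6 in EOM (SD, n = 4), 258 ± 95.2 in TA_6h (n = 4) and 204 ± 19.4 in TA_1h (n = 2). Id2 was 3.91-fold higher in EOM than in TA_6h (log2 1.97 ± 0.25, limma adjusted p = 0.000168) and 4.68-fold higher than in TA_1h (2.23 ± 0.31, adjusted p = 0.000398). Within TA_6h the 4 arrays of low beta-actin ratio gave 160 to 204 and the other 4 gave 263 to 418, all below the EOM arrays.

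Id1 was moderately higher in EOM through both of its probe sets (chromosome 3, 161671525 to 161672691, plus strand). L23148_at gave 688, 667, 673 and 792 on EOM arrays, against 414 to 643 (median 525) on TA_6h arrays and 584, 459, 498 and 363 on TA_1h arrays. Its EOM arrays were above all TA arrays, and the differences were 0.46 ± 0.15 against TA_6h (limma adjusted p = 0.0271) and 0.58 ± 0.18 against TA_1h (adjusted p = 0.0281) on the log2 scale. L23148_g_at gave 1939, 2299, 1584 and 1579 on EOM arrays, against 1033 to 1726 (median 1150.0) on TA_6h arrays and 629.8, 680.0, 769 and 986 on TA_1h arrays. Here TA_6h arrays 1b and 2b overlapped the EOM range, and TA_1h arrays did not. The log2 differences were 0.54 ± 0.20 (limma adjusted p = 0.0463) and 1.28 ± 0.24 (adjusted p = 0.00251). The calls against TA_6h were close to the threshold: over 26 other settings that of L23148_at was lost in 8 and that of L23148_g_at in 12, and after quantile normalization both were lost (log2 0.31 each). Without the 5 arrays of low ratio L23148_g_at gave 0.35, not called. Leaving out 1 numbered sample ended the call of L23148_at without EOM 1, 3 or 4 or TA_6h 1 or 2 (0.40 to 0.48) and that of L23148_g_at without any EOM sample or TA_6h 1, 3 or 4 (0.43 to 0.61). Against TA_1h, L23148_at was not called without EOM 1, 3 or 4 or TA_1h 2 (0.44 to 0.61), after quantile normalization (0.43) or with number as a replicate block (0.51), and the block also ended its call against TA_6h (adjusted p = 0.063). With only the 5 arrays of low ratio as TA its difference from TA_1h was 0.95.

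The 2 probe sets of Id3 (chromosome 5, 153656253 to 153657860, plus strand) differed in their comparison with TA_6h. AF000942_at gave 906, 389, 557 and 515 on EOM arrays, against 42.4 to 549 (median 308) on TA_6h arrays, of which 7 of 8 were above the floor. The TA_1h arrays gave 85.9, 67.9, 77.6 and 52.6, the last below the floor. EOM overlapped TA_6h and was above all TA_1h arrays. The log2 difference from TA_6h was 1.32 ± 0.54 and missed the threshold (limma adjusted p = 0.0697) in the reported setting. It passed in 6 of 25 others, among them without TA_6h replicate 2 (1.61, limma adjusted p = 0.0446). That from TA_1h was 2.99 ± 0.66 (adjusted p = 0.00583), a lower limit of its size because 1 TA_1h array was raised to the floor. The other probe set, rc_AI171268_at, gave 2072, 843, 1360.0 and 850.5 on EOM arrays, against 933 to 1617 (median 1212) on TA_6h arrays and 421, 501, 719 and 667 on TA_1h arrays. EOM spanned the whole TA_6h range and lay above TA_1h. Its log2 difference was -0.02 against TA_6h (95% interval -0.69 to 0.65, limma adjusted p = 0.97) and 1.08 ± 0.37 against TA_1h (adjusted p = 0.0427). The last call was lost in 13 of 26 other settings, among them without EOM 1 or 3, either TA_1h sample or any TA_6h sample (0.78 to 1.38).

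Dlk1 was lower in EOM than in TA_6h and did not pass against TA_1h. D84336_at (chromosome 6, 134192491 to 134199779, plus strand) gave 423, 365, 390.3 and 396 on EOM arrays. TA_6h arrays ran from 552 to 1194 with a median of 815, and TA_1h arrays gave 719, 493, 622 and 114. All TA_6h arrays and 3 of the 4 TA_1h arrays were above the EOM arrays, and TA_1h array 2b was below them. Means were 394 ± 23.7 in EOM (SD, n = 4), 881 ± 74.4 in TA_6h (n = 4) and 487 ± 168 in TA_1h (n = 2). The gene was 2.18-fold lower in EOM than in TA_6h (log2 -1.13 ± 0.23, limma adjusted p = 0.00297), a call that held in all 26 other settings. The difference from TA_1h was -0.02 (95% interval -0.65 to 0.61, adjusted p = 0.97) and turned on array 2b. Without the 5 arrays of low beta-actin ratio, 2b among them, it was -0.63 and passed (adjusted p = 0.00445). With only those 5 as TA it was 1.79 (adjusted p = 0.000907), where 2b is the only TA_1h array and is assumed to vary like the other groups.

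**Figure D2:**
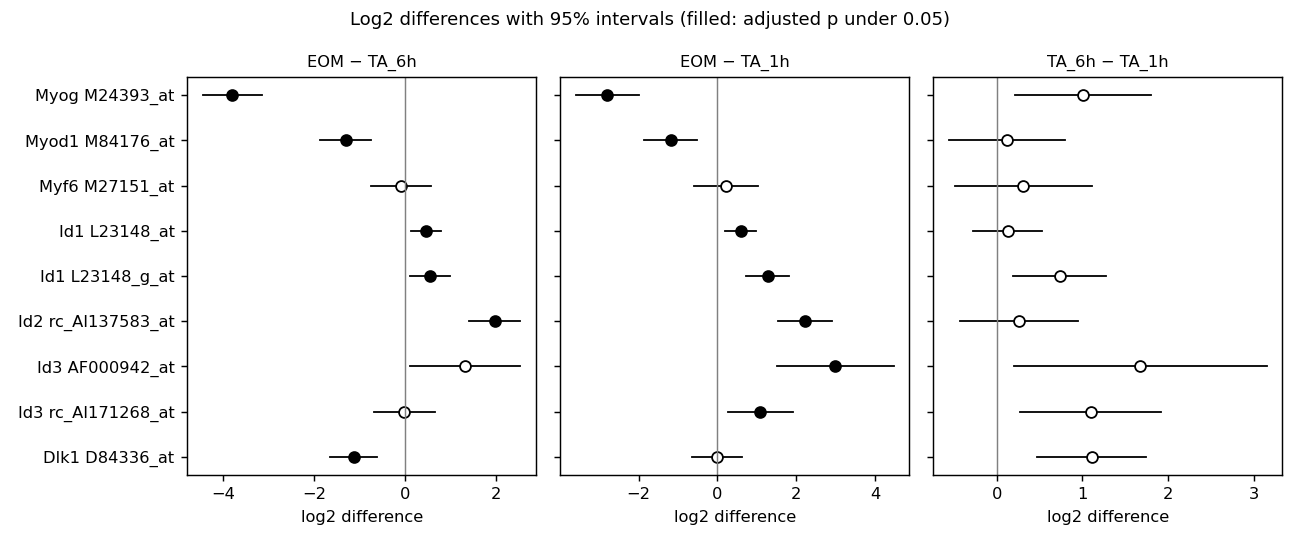
Log2 differences of the 9 member probe sets for EOM minus TA_6h, EOM minus TA_1h and TA_6h minus TA_1h (x axes, each panel with its own range), with 95% intervals. Filled points have a limma adjusted p under 0.05. Myog is lowest in both EOM panels (-3.80 and -2.79), and no point is filled in the panel of the TA hours.

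The second question was whether the members differ between TA muscle of 6 hours and of 1 hour. None of the 9 probe sets passed the limma test after adjustment, as 0.00% of all tested probe sets did. At an unadjusted p under 0.05 there were 5 member probe sets, all higher in TA_6h, where 5.55% of all probe sets passed in either direction and 3.34% were higher. They were Dlk1 (log2 1.11 ± 0.28), L23148_g_at of Id1 (0.74 ± 0.24), rc_AI171268_at of Id3 (1.10 ± 0.37), Myog (1.00 ± 0.35) and AF000942_at of Id3 (1.67 ± 0.66), with limma adjusted p between 0.56 and 0.88. In 2 of them, L23148_g_at and rc_AI171268_at, every TA_6h array was above every TA_1h array, as in 0.602% of all probe sets, and no member had the opposite order (0.589% of all). The fitted difference was above 0 for all 9, with a median of 0.74 against 0.01 over all probe sets. The other 4 were Myod1 at 0.12 (95% interval -0.55 to 0.80), Myf6 at 0.31 (-0.49 to 1.11), L23148_at of Id1 at 0.13 (-0.28 to 0.53) and Id2 at 0.26 (-0.43 to 0.95).

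A low beta-actin ratio was found on 4 of 8 TA_6h arrays and 1 of 4 TA_1h arrays, so the values are given with and without these. Myog passed without those 5 arrays (1.21, limma adjusted p = 0.038) and with them as a batch term (1.32, adjusted p = 0.030). With only those 5 its difference was 1.49. Without the 5 arrays TA_6h has 2 numbered samples, 1 and 2, and with only the 5 it has 3 and 4. In the fit with the batch term, arrays 2a and 2b of TA_1h differ in ratio and count as samples of their own. With only those 5, TA_1h is the single array 2b, which is assumed to vary like the other groups. Of all tested probe sets, 33 were called higher and 12 lower without the 5 arrays, and 10 higher and 1 lower with the batch term. Dlk1 gave 0.48 without the 5 arrays, not called, and 2.93 with only them (adjusted p = 0.00463). By numbered sample, Dlk1 was 1.69 without TA_1h replicate 1 and 0.53 without TA_1h replicate 2, and neither was called. With 2 TA_1h samples, 1 sample decides much of such a value.

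Values also differed between the 2 TA arrays that share a number. The largest gap was that of Dlk1 in TA_1h sample 2, with 114 on array 2b and 622 on array 2a, 5.45-fold apart. In TA_6h sample 1, array 1b was above array 1 by 1.37 for Myf6, 1.28 for Myog, 1.11 for Dlk1 and 0.96 for Myod1 on the log2 scale, while AF000942_at of Id3 was 1.05 lower on it. Myog also differed by 1.12 within TA_6h sample 3 and by 1.05 within TA_1h sample 2. The median absolute gap over all tested probe sets was 0.26 to 0.52 by sample. Across tested probe sets the 2 arrays of a number correlated at 0.899 to 0.957, and for 4 of the 6 pairs some other array of the same group correlated better with 1 of them, so their pairing rests on the labels. In TA_6h sample 1, array 1b also stands apart from array 1 in the middle Gapdh probes (2184 and 19527), and the part of this in its member values was not tested. That array 1 and array 1b of TA_6h are the same sample is an inference from their number, and with arrays 1 and 2 as samples of their own 5 members passed between EOM and TA_6h.

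**Figure D3:**
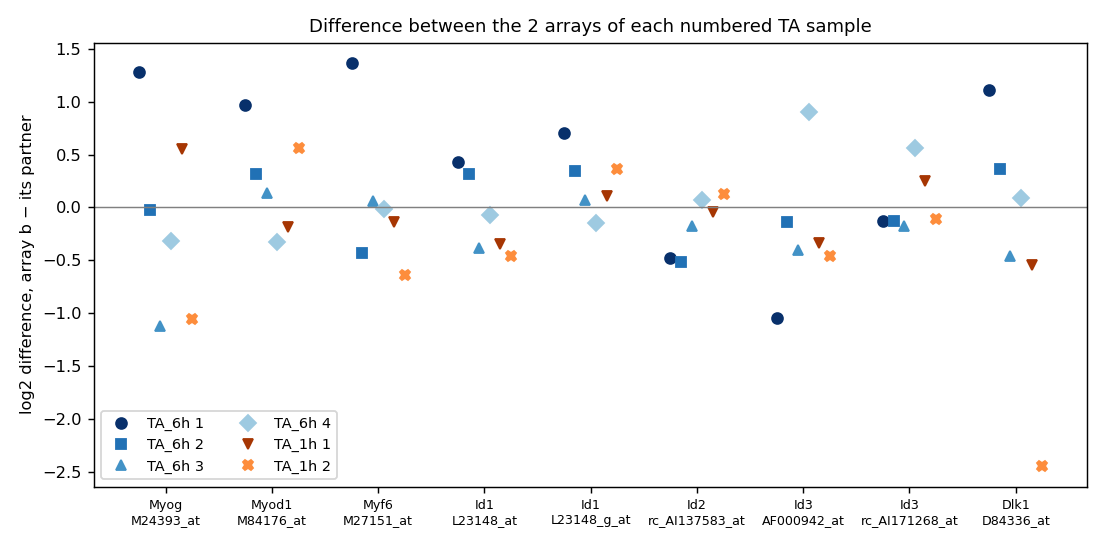
Log2 difference between the 2 arrays of each numbered TA sample (array b minus its partner, y axis) for the 9 member probe sets (x axis). Each symbol is a numbered sample. Dlk1 in TA_1h sample 2 lies at -2.45, and in TA_6h sample 1 all of Myog, Myod1, Myf6 and Dlk1 lie above 0.9.

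Genes listed as bHLH and MEF2 partners, some of which pair with other bHLH proteins, differed in both directions at the RNA level. Of 11 measured bHLH and MEF2 partners 3 were higher and 4 lower in EOM against each TA group. Over all tested probe sets 21.9% were higher and 25.3% lower than in TA_6h, and 17.7% higher and 19.5% lower than in TA_1h, and the list counts below stand beside these shares. The E proteins Tcf4 (1486 in EOM, 543 in TA_6h and 507 in TA_1h; log2 1.47 ± 0.17 and 1.59 ± 0.20) and Tcf12 (1.43 ± 0.36 and 1.56 ± 0.44, with its dimmer probe set not called) were higher, the second by lower limits because 3 TA_6h and 2 TA_1h arrays were raised to the floor. Tcf3, the E protein gene that encodes E12 and E47, was lower (-0.86 ± 0.15 and -0.76 ± 0.18), as was Mef2d (-1.01 ± 0.23 and -0.94 ± 0.29). Max, the bHLH partner of Myc, was at the floor on every EOM array and at least 4.21-fold lower than in TA_6h. The repressor gene Bhlhe40 was lower than in TA_1h by log2 -1.53 ± 0.36 (limma adjusted p = 0.0083). Bhlhe41, on the same list, was higher in EOM than in TA_6h and TA_1h (1.39 ± 0.17 and 1.38 ± 0.21). The median difference of the list was -0.29 from TA_6h and -0.42 from TA_1h, against -0.10 and -0.09 over all 4317 genes tested. Tcf3, Mef2d and Bhlhe41 were named after their values were seen.

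Genes known to be bound or driven by myogenic factors were called in both directions. Of 20 measured, 6 were higher and 5 lower in EOM than in TA_6h, and 6 higher and 3 lower than in TA_1h, with medians of 0.07 and 0.14. Acetylcholine receptor subunit genes, whose promoters hold E boxes, were among the higher ones: Chrna1 was at 2514 in EOM, 655 in TA_6h and 722 in TA_1h (log2 2.04 ± 0.27 and 1.84 ± 0.33). Embryonic myosin Myh3 was 4.56-fold higher than in TA_1h (log2 2.19 ± 0.54). Ncam1, a surface protein of denervated fibres and satellite cells, was at the floor on every EOM array and at least 4.12-fold lower than in TA_6h. Ckm (4.39 ± 0.82 from TA_6h) and Acta1, skeletal actin (3.80 ± 0.90 from TA_1h), were higher by values that rest on TA arrays near or below the floor: Acta1 ran from 7.17 to 31652 over the TA_1h arrays.

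Among 30 genes of BMP and TGF-beta signalling, a list wider than the BMP signals that act on Id genes, 8 were higher and 3 lower in EOM than in TA_6h. Against TA_1h 5 were higher and 2 lower. Ltbp1, which binds latent TGF-beta in the matrix, was at 2163 in EOM, 439 in TA_6h and 290.1 in TA_1h (log2 2.30 ± 0.17 and 2.96 ± 0.21). Acvr2b, a receptor for activins and myostatin, was lower (-2.98 ± 0.46 and -2.88 ± 0.56), lower limits of the size, with 3 of 4 EOM arrays above the floor. Tgfb1 was at the floor on every EOM array and at least 3.86-fold lower than in TA_6h and 3.11-fold lower than in TA_1h. Bmp4 (1.09 ± 0.34) and Bmpr1a (1.05 ± 0.28) were higher than in TA_6h, and Smad9 was lower (-1.31 ± 0.35). Some arrays of each were raised to the floor, and none of these passed against TA_1h. Bmp2, Bmp3 and Bmp6 passed against neither TA group. These genes were named after their values were seen. The medians of the list were 0.09 and 0.27.

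In the Notch pathway, to whose ligands Dlk1 is related, 2 of 16 measured genes were higher and 5 lower in EOM against each TA group, with medians of -0.14 and -0.50. The ligand genes Dll1 (-2.78 ± 0.48 and -2.82 ± 0.58) and Dll3 (at least 5.47-fold lower than in TA_6h and 4.17-fold lower than in TA_1h) and the receptor gene Notch1 (-2.07 ± 0.47 and -2.15 ± 0.58) were lower. Dll1 was above the floor on 1 EOM array and Dll3 on none, so the values of Dll1 are lower limits of the size that the floor sets. Exit from the cell cycle is known to be promoted by Myod1 and Myog. Of 16 genes listed for it, 3 were higher and 3 lower than in TA_6h, and 2 higher and 3 lower than in TA_1h. This list holds inhibitors and drivers of the cycle, so its counts have no single direction. Cdkn2b, an inhibitor of cyclin D kinases, was lower (-2.04 ± 0.18 and -2.04 ± 0.21, lower limits of the size, since 2 of 4 EOM arrays were raised to the floor), while Pcna, the sliding clamp of replication (1.30 ± 0.20 and 1.64 ± 0.25, with its dimmer probe set not called), and Cdk4 (0.98 ± 0.18 and 1.02 ± 0.22) were higher. Of the other called genes, Ccnb1 was lower (-0.77 ± 0.16 and -0.95 ± 0.19), and Rbl2 was higher than in TA_6h (0.89 ± 0.21). Cdk1, at the floor on every EOM array, was also lower (-0.52 and -0.72). These 3 were named after their values were seen. No gene of these 5 lists passed between TA_6h and TA_1h.

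Markers of other cell types also differed between the muscles, and in whole muscle RNA fewer cells of a type and less RNA per cell cannot be told apart. Of all tested probe sets 1174 (15.4%) were at the floor on every EOM array. The marker genes named below as at the floor stand beside this share. Satellite cells and myoblasts are cells in which Myod1 and Myog are known to be active. Of 8 measured markers of them 1 (Vcam1) was higher and 4 were lower in EOM than in TA_6h, and none was higher and 2 lower than in TA_1h. Sdc3 and Ncam1 were at the floor on every EOM array, and the summed intensity was 15826 to 18177 on EOM arrays, 14147 to 42312 on TA_6h arrays and 17460 to 32549 on TA_1h arrays. Des, used above as a check on the tissue, is on this list and on that of skeletal muscle. Its means of 8891 in EOM, 16410 in TA_6h and 13857 in TA_1h are a large part of these sums. It is also 1 of the 4 genes lower than in TA_6h. Of 16 skeletal muscle markers 2 were higher and 7 lower than in TA_6h, and 2 higher and 6 lower than in TA_1h. Their summed intensity was 185369 to 216077 in EOM, 191582 to 472095 in TA_6h and 215483 to 507029 in TA_1h.

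Id genes are known to be active in endothelial cells and fibroblasts. Of 10 endothelial markers, each through its brightest probe set, none was higher and 3 were lower in EOM against each TA group. Their summed intensities were 3175 to 3869 in EOM, 3622 to 4965 in TA_6h and 3174 to 5323 in TA_1h. Vwf, Icam2 and Sele were at the floor on every EOM array. The lower genes were Thbd and Icam2 against each TA group, with Sele against TA_6h and Vwf against TA_1h. A dimmer probe set of Thbd was called higher in EOM in both comparisons. Of 21 fibroblast and matrix markers 12 were higher and 2 lower than in TA_6h, and 13 higher and none lower than in TA_1h. Their sums were 98603 to 123349 in EOM, 67415 to 106673 in TA_6h and 53544 to 68824 in TA_1h. Lumican (Lum) was 21.4-fold higher than in TA_6h (log2 4.42 ± 0.26). Of 12 markers of nerve and Schwann cells 7 rose and 2 fell relative to TA_6h (6 and 1 against TA_1h), with sums of 13080 to 17220 in EOM, 6148 to 8803 in TA_6h and 5153 to 8910 in TA_1h. Of 15 immune markers 9 were higher and 2 lower (8 and 1 against TA_1h), with sums of 13334 to 19218 in EOM, 5085 to 8286 in TA_6h and 4598 to 5598 in TA_1h. Cd8a and Mcpt1 were at the floor on every EOM array. The part of these cell types in the levels of the Id genes, Myog, Myod1 and Dlk1 was not tested.

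Dlk1 is known as a preadipocyte gene and is strongly expressed in endocrine and placental tissue. Of 16 adipocyte and preadipocyte markers 6 were higher and 5 lower in EOM than in TA_6h, and 5 higher and 5 lower than in TA_1h. Lipe, the hormone-sensitive lipase, was at the floor on every EOM array and at least 28.5-fold lower than in TA_6h, Plin1 and Cebpa were also at the floor, and Cidea was 14.9-fold higher than in TA_6h. The summed intensity was 25573 to 34132 in EOM, 25214 to 36825 in TA_6h and 28048 to 31095 in TA_1h. Of 8 pituitary, adrenal and placental markers, each through its brightest probe set, none was higher, and 4 were lower than in TA_6h and 2 lower than in TA_1h. Lhb, 1 of the 4, has a dimmer probe set that was called higher in EOM than in TA_6h. Prl, Pomc, Tshb and Cyp17a1 were at the floor on every EOM array, and the sums were 661 to 919 in EOM, 1519 to 1864 in TA_6h and 1524 to 2057 in TA_1h. None of the 8 marker lists had a gene that passed between the TA hours.

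**Figure D4:**
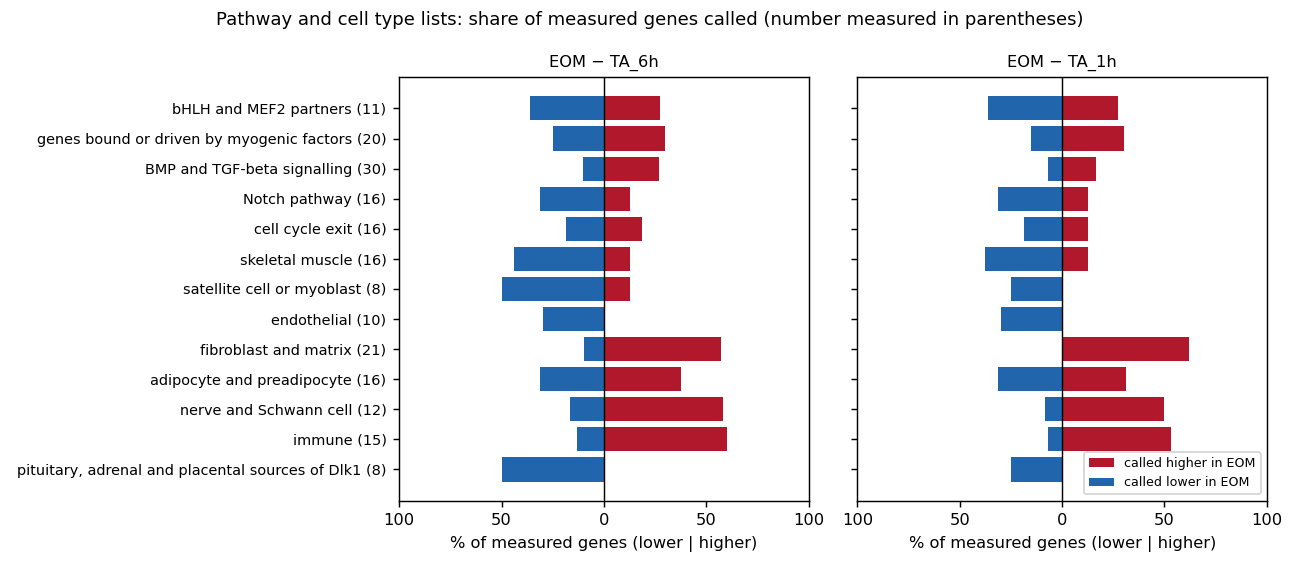
Share of measured genes called higher (red, right) or lower (blue, left) in EOM against TA_6h and against TA_1h, for 5 pathway lists and 8 cell type lists. Numbers in parentheses are measured genes. Against TA_6h, 12 of 21 fibroblast and matrix genes were called higher and 5 of 16 Notch genes lower, beside 21.9% higher and 25.3% lower among all tested probe sets.

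Genes whose pattern over the 10 numbered samples was most like a member's were ranked by the root mean square log2 difference after each was centred on its mean. These are descriptions, in which all genes share the same arrays. Nearest to Myog were Ptprs (0.217), S1pr2 (0.381) and Slc12a4 (0.385). All EOM values of Myog are the floor, so this likeness rests partly on it. Myod1 was nearest to Il1r2 (0.197), Thbd (0.235) and Nos1 (0.241), the gene of neuronal nitric oxide synthase. For Myf6 the 3 nearest probe sets were 2 of Gas5 (0.227 and 0.231) and 1 of Snd1 (0.240). Id2 had the closest likeness of any member, with Eid1 (0.126), Dab2 (0.144) and Selenop (0.170), whose differences from TA_6h were 2.12, 1.92 and 2.20 beside 1.97 for Id2. Id1 was nearest to Canx (0.185), Pou3f1 (0.187) and Ap2b1 (0.209). Id3, through rc_AI171268_at, was nearest to Man2b1 (0.306), Col1a1 (0.348) and Egr2 (0.354). Col1a1, a fibroblast marker above, differed by -0.09 from TA_6h and by 1.21 from TA_1h, beside -0.02 and 1.08 for Id3. Dlk1 was nearest to the cytokine receptor genes Cntfr (0.271) and Il6r (0.297) and to Aif1l (0.279).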

How the data were processed

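The authors deposited 1 intensity per probe set and array on a linear scale. Nothing in the sources says how they summarised the probes, and the nearly equal trimmed means (2% off each end, 801.1 to 801.8 per array) show a scaling to a common mean. The values were used as deposited. Controls (59 probe sets) were left out, values were floored at the 25th percentile, and a probe set was tested if 4 or more arrays exceeded the floor. Log2 values were averaged over the arrays of each numbered sample, with the 2 TA_6h arrays that carry no letter joined to arrays 1b and 2b by inference. All 3 groups entered 1 limma fit (version 3.58.1 under R 4.3.3, moderated by eBayes) with 7 residual and 2.83 prior degrees of freedom. Benjamini-Hochberg adjustment ran over all 7640 probe sets. Every adjusted p comes from limma. Errors of log2 differences are standard errors, and the number of arrays limits their precision.

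GEO's platform annotation gives 1 symbol to 7018 probe sets and several to 308, and does not list 1473. Gene numbers tied 6994 of the 7018 to RefSeq entries, all under the same symbol. A gene in a list is represented by its brightest probe set. From each list up to 3 called genes with the largest absolute difference per comparison were named. Gene positions and promoters are RefSeq's (GRCr8), not the array design's. The fit was tested on simulated data, and 24 planned and 2 added alternatives were run. Members and lists were chosen with earlier results of these data known. Deviations of same-numbered samples correlated at 0.02 to 0.10 between EOM and TA_6h, -0.04 and 0.04 between EOM and TA_1h, and -0.42 and 0.39 between TA_6h and TA_1h. Not every pair was over 0.1, so number was not taken as pairing. Plots used matplotlib 3.10.9 (Python 3.11.15).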

Additional observations from a re-analysis of the deposited data

How the results depend on the processing

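Over the 26 alternatives (25 for Myog and AF000942_at, which have arrays at the floor) the calls of Myog and Id2 against both TA groups, of Myod1 and Dlk1 against TA_6h, and of L23148_g_at and AF000942_at against TA_1h were kept. Between EOM and TA_6h 4 to 7 member probe sets were called, between EOM and TA_1h 5 to 7. Between the TA hours 1 was called without the 5 arrays of low beta-actin ratio, 2 with only those as TA and 1 with a batch term for them, against 0 otherwise. With number as a replicate block 5, 5 and 0 were called, and besides L23148_at the block ended the call of rc_AI171268_at against TA_1h (1.09, limma adjusted p = 0.094). Signs turned only for differences not called in the report. Against TA_6h, Myf6 gave 0.013 with arrays scaled to the same median, 0.24 with only the 5 arrays and 0.075 without array 1b (chosen after seeing the data), and -0.36 to 0.16 leaving out 1 sample. There rc_AI171268_at gave 0.091 with the same median, 0.12 without the 5 arrays, 0.11 with the batch term, 0.027 with arrays 1 and 2 as samples of their own (also chosen after seeing the data), and -0.28 to 0.15 leaving out 1 sample. Against TA_1h, leaving out 1 sample gave -0.014 to 0.45 for Myf6 and -0.60 to 0.56 for Dlk1, and Dlk1 gave 0.082 with the same median and 1.79 with only the 5 arrays. Between the TA hours Myod1 gave -0.27 and Id2 -0.36 with only the 5 arrays, L23148_at gave -0.073 without them, and leaving out 1 sample gave -0.043 to 0.28 for Myod1 and -0.016 to 0.27 for L23148_at. The causes were not tested. Restricting the test to those never at the floor left 4041 probe sets, of which 1136 were higher and 791 lower in EOM than in TA_6h (1671 and 1935 of 7640 otherwise). Against TA_1h 923 were higher and 589 lower (1354 and 1489 otherwise). Higher calls thus outnumbered lower ones under the restriction, while lower calls outnumbered higher ones without it. The restriction also took the number of BMP and TGF-beta genes called lower against TA_6h to 0 (3 otherwise) and of Notch genes to 2 (5 otherwise).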
